A study of Mus musculus with 4 samples.

Results

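The genes described here are 10 mouse genes of iron uptake, storage and regulation: Tfrc, Slc11a1, Slc11a2, Steap3, Slc25a37, Slc40a1, Fth1, Ftl1, Aco1 and Ireb2. They were chosen by name, with earlier results of these same libraries known, among them the difference at Slc11a1. Their values are therefore given as a description, and no test is used in their support. Every probe set annotated with exactly 1 of these symbols was kept, which gave 23 of the 45101 probe sets on the array. Of these, 3 are the manufacturer's control sets for the 5' end, the middle and the 3' end of the mouse transferrin receptor transcript. At least 1 probe set was found for 9 of the 10 genes. Ftl1, the ferritin light chain gene, had none of its own, since its 3 probe sets are annotated to a pseudogene as well, and it is not analysed here.

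Iron enters most cells bound to transferrin, which the transferrin receptor carries into endosomes. There the metal is reduced by a STEAP reductase and passes into the cytosol through a divalent metal transporter. It is then stored in ferritin, delivered to mitochondria through mitoferrin or exported through ferroportin. Iron regulatory proteins sense cytosolic iron, bind hairpins in the transcripts of the receptor and of ferritin, stabilise the former and block translation of the latter. Control of ferritin is thus largely translational, and RNA levels such as those measured here do not report it.

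RNA was measured in 4 microarray libraries of BA/F3, an interleukin 3-dependent mouse line often taken to stand for early B cells. According to the titles, source names and genotypes, 2 libraries (fusion 1 and fusion 2) came from cells with an inducible human ETV6-RUNX1 (TEL-AML1) gene, the fusion transcription factor of a childhood B-cell leukemia, and 2 (control 1 and control 2) from cells without it. Total RNA was taken from all 4 after 16 h with the inducer mifepristone (32.5 pM). The labels do not say what promoter drives the fusion, whether either line is a single clone, or what vector the control cells carry, although the design text names an empty vector for the controls of a promoter-binding experiment. That text and the titles speak of chromatin immunoprecipitation, whereas the protocols and the series type are those of RNA expression. The free-text description field contradicts the titles for the replicate 1 pair: it calls fusion 1 a control and control 1 fusion-expressing. Each comparison is therefore given by title and by description, where the described fusion libraries are control 1 and fusion 2 and the described controls are fusion 1 and control 2. The replicates are called independent in the design text, but nothing says that they were separate cultures, so their spread may be technical.

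The values are log2 probe set levels on which 2.23 is the lowest in the table, and a value near it is a background level. Of the 20 member probe sets that are not controls, 8 had a mean of at least 4 over the 4 libraries and entered the fit; they belong to Tfrc, Slc11a1, Fth1, Ireb2 and Slc25a37. Over all 17720 probe sets in the fit, limma called 0% by title and 0.0113% (2 probe sets) by description, at a Benjamini-Hochberg adjusted p of 0.05. With any 1 library left out the 2 became 0, but such a fit has a single library on one side, which is assumed to vary like the remaining pair, so this loss says little about stability. No iron gene was among these calls, and at an unadjusted p under 0.05 they numbered 0 of 8 by title and 1 of 8, Slc11a1, by description. The same rule was met by 50 of all tested probe sets (0.282%) by title and by 3494 (19.7%) by description. Of the early B cell markers, Pax5, Ebf1, Vpreb1, Il7r, Rag1, Rag2, Cd22 and Ms4a1 lay within 0.5 of the lowest value in all 4 libraries. Csf2rb, the shared beta chain of the interleukin 3 receptor, read 14.08 to 14.78, and Cd79b, a B cell receptor chain, 8.31 to 8.81. In bulk RNA, fewer cells that carry a transcript and less transcript per cell cannot be told apart.

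**Figure D1:**
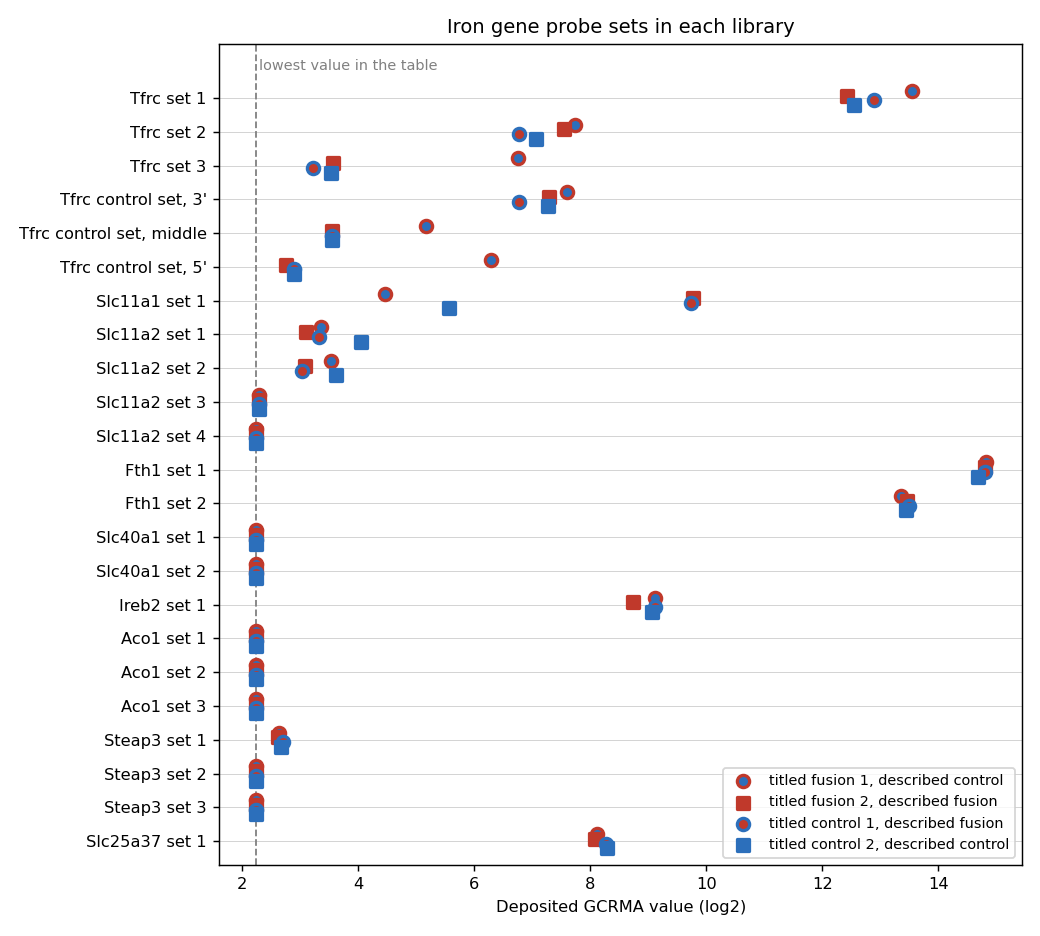
Deposited GCRMA values (log2, horizontal axis) of the 23 iron gene probe sets, 1 row each and 4 points per row; sets of a gene are numbered by falling mean level. Edge colour gives the title, fill the description field (red fusion, blue control), shape the replicate number (circle 1, square 2), and the dashed line the lowest value in the table; the points of Slc11a1 lie far apart, 4.46 to 9.76, whereas those of Fth1, Ireb2 and Slc25a37 nearly coincide.

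Slc11a1 encodes NRAMP1, a metal transporter of the phagosome membrane best known from macrophages. Its only probe set (1420361_at) read 4.46 in fusion 1, 5.56 in control 2, 9.73 in control 1 and 9.76 in fusion 2. The levels thus fell into a low and a high pair. The high pair is the one that the description field calls fusion-expressing, and its members lay 0.0309 apart, while the low pair lay 1.10 apart. All 4 values stood clear of the lowest value of the table.

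By description, Slc11a1 read 9.75 ± 0.02 (SD, n = 2) in the fusion libraries against 5.01 ± 0.78 in the controls, which differ by a log2 value of 4.74 (SE 0.43), or 26.7-fold. By title the means were 7.11 ± 3.75 (SD, n = 2) and 7.65 ± 2.95, a difference of -0.54 (SE 2.48). The title groups overlapped fully, because the 2 replicate pairs ran in opposite directions. In replicate 1 the library titled fusion was lower by 5.28 on the log2 scale, 38.8-fold. In replicate 2, the only pair whose labels all agree, it was higher by 4.21, 18.4-fold. Differences of 2-fold or more within the pair were found at 13.0% of tested probe sets in replicate 1 and at 11.4% in replicate 2, and 2 and 1 of the 8 iron gene probe sets were among them.

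**Figure D2:**
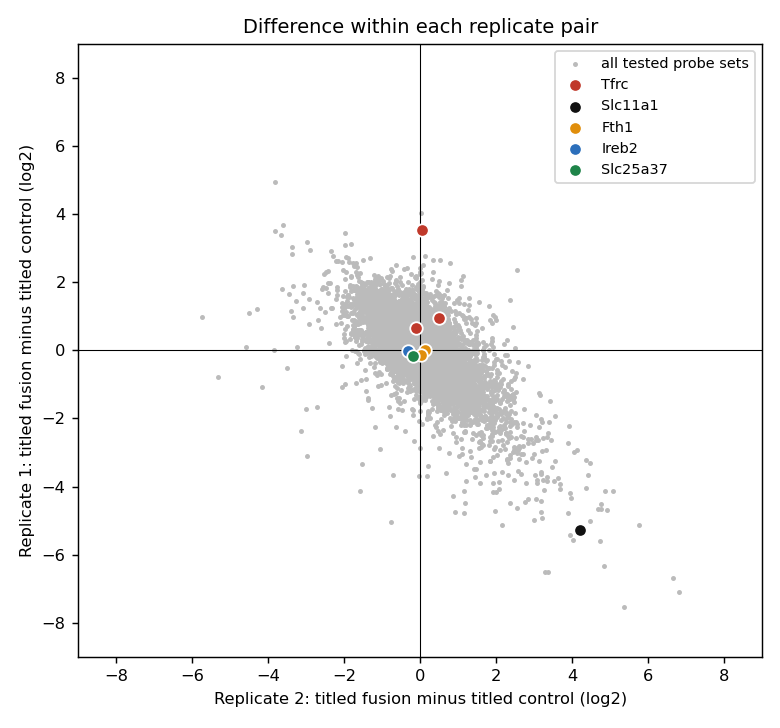
Titled fusion minus titled control (log2) in replicate 2 (horizontal axis) and in replicate 1 (vertical axis) for the 17720 tested probe sets (grey) and the 8 of iron genes (coloured). Slc11a1 lies at 4.21 and -5.28, far out along the diagonal on which the pairs disagree, while a Tfrc probe set lies at 0.04 and 3.53, apart in replicate 1 alone.

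Counted over the 8 probe sets, Slc11a1 was the single one at least 2-fold apart without overlap by description, a rule that 9.23% of all tested probe sets met. By title the single one was a Tfrc probe set, against 0.429% of all. Groups failed to overlap, at any size, at 4 of the 8 by title and at 2 of the 8 by description, against 10.7% and 50.4% of all tested probe sets. The 4 by title were 2 of Tfrc, 1 of Fth1 and that of Slc25a37, and the 2 by description were Slc11a1 and 1 of Fth1. Nothing is read from these shares, since the members were chosen with both comparisons known.

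The genes whose 4 values, each centred on its own mean, lay nearest to those of Slc11a1 among the named genes tested were Ccr2, Slfn4 and Hal. Their root mean square differences from it over the 4 libraries were 0.19, 0.28 and 0.31 on the log2 scale. In the low pair Hal and, in fusion 1, Slfn4 lay within 0.5 of the lowest value of the table, where depth is not measured, so their nearness is approximate. Ccr2, a chemokine receptor of monocytes, read 3.31 in fusion 1, 4.32 in control 2, 8.74 in control 1 and 8.25 in fusion 2. Slfn4, a Schlafen family gene, read 2.50, 4.35, 8.07 and 8.36 in the same order. Hal, histidine ammonia-lyase, read 2.28, 2.56, 7.29 and 7.02. The low and high pairs are the same as those of Slc11a1 because the genes were picked for that likeness.

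Markers of other blood cells were read beside Slc11a1, and none was called by limma's adjusted p. Of 16 macrophage and monocyte markers on the array 6 were tested, and 5 of these were higher by description, with a median difference of 1.90. Ccr2 differed by 4.68 (SE 0.44) and Adgre1, which encodes F4/80, by -1.61 (SE 0.77). The near-identical lysozyme genes Lyz1 and Lyz2 differed by 2.96 (SE 1.37) and 2.53 (SE 1.09). Lyz1 read 3.87 in fusion 1, 7.60 in control 2, 8.65 in control 1 and 8.75 in fusion 2. Lyz2 read 3.11, 6.06, 6.95 and 7.27 in the same order. At both, fusion 1 alone thus stood far below the other libraries. The summed linear level of the macrophage list was 377 in fusion 1, 1462 in control 1, 1099 in control 2 and 1514 in fusion 2. This sum mixes markers that ran in opposite directions by description, such as Ccr2 and Adgre1. In control 2 its brightest gene was Cd68, at 8.92. Cd14, Mpeg1, Marco, Msr1, C1qa, C1qb, C1qc and Clec7a lay within 0.5 of the lowest value in every library. Of 13 mast cell and basophil markers 7 were tested and 6 were higher by description, with a median of 2.13. Fcer1a read 9.91 in control 1 and 7.69 in fusion 2, against 2.37 and 2.32 near the lowest value in fusion 1 and control 2. Cma1 read 11.39 and 7.99 in the first pair, and 6.27 and the lowest value, 2.23, in the other, so neither gene has a measured fold. Hdc differed by 3.60 (SE 0.55) and Ms4a2 by 2.13 (SE 0.88). Ms4a2 read 9.18 in control 1 but only 6.89 in fusion 2, against 5.59 in fusion 1 and 6.22 in control 2. Cd200r3 differed by -2.03 (SE 0.20), the opposite direction, and was named after its value was seen. It read an identical 3.87 in control 1 and fusion 2, against 5.75 in fusion 1 and 6.06 in control 2. With identical low readings on one side, its size and small SE are uncertain. Kit, Mcpt4, Tpsab1 and Tpsb2 lay near the lowest value throughout. The summed linear level of that list was 9548 in fusion 1, 18027 in control 1, 8530 in control 2 and 8752 in fusion 2. Gata2 (12.44 to 13.26) and Fcer1g (11.04 to 11.82), its brightest genes in every library, weigh most in this sum. It therefore does not follow the dimmer markers. The part of such cells in the Slc11a1 result was not tested.

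Among the iron genes, only Slc11a1 (by description) and Tfrc (by title) had a tested probe set at least 2-fold apart without overlap. Neither was called by limma. Their upstream sequences are shown for that reason alone. Both were taken from RefSeq (GRCm38.p6, plus strand), chr1:74374953-74375013 for Slc11a1 and chr16:32608646-32608895 for Tfrc, and end just before the earliest annotated start of the gene. Capitals mark the letters TGTGGT or TGCGGT on either strand, a core bound by RUNX proteins; CACGTG, an E-box, and GGAAGT, an ETS core, were searched as well.
Slc11a1: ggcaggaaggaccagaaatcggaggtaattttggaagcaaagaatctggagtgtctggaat
Tfrc: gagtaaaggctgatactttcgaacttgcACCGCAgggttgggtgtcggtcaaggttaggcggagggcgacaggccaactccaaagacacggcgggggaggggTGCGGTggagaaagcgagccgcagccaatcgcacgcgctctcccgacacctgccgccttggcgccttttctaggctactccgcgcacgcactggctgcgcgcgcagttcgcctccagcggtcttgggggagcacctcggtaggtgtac
Windows of 250 bases before to 50 after a start were listed for 7 of the 10 genes. The Tfrc stretch holds the RUNX core TGCGGT once on each strand, at positions -148 and -222 from the start, and 22.4% of all 32851 mouse windows hold at least 1 such core. The Slc11a1 window holds none of these letters. The stretch printed for Slc11a1 is 61 bases long, against 250 for Tfrc, so their contents are not compared. Of the other windows listed for the members, 1 of Steap3 held TGTGGT at positions -68 and -63, as overlapping copies. GGAAGT, held by 23.8% of all windows, was found for Steap3 and Tfrc, and CACGTG, held by 7.15%, for none of the 7 genes. A match is a description of letters, and no binding was measured here.

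Tfrc encodes the transferrin receptor, the main entry route of iron into dividing cells. Its brightest probe set (1452661_at) read 13.56 in fusion 1, 12.43 in fusion 2, 12.89 in control 1 and 12.55 in control 2. The next (1422966_a_at) read 7.74, 7.55, 6.77 and 7.06 in the same order. The third (1422967_a_at) read 6.75 in fusion 1 and only 3.56, 3.22 and 3.52 in the others. Fusion 1 was thus the highest library at all 3, by margins of 0.66, 0.19 and 3.19 over the next.

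The 3 control sets of the same transcript gave fusion 1 the highest value too. The 3' set read 7.60 in fusion 1, 7.29 in fusion 2, 6.76 in control 1 and 7.27 in control 2. The middle set read 5.16 in fusion 1 and an identical 3.55 in the other libraries. The 5' set read 6.29 in fusion 1, 2.76 in fusion 2 and 2.89 in each control library. All 6 Tfrc probe sets therefore ranked fusion 1 first, and at the third, the middle and the 5' set the other libraries lay at low levels that spanned 0.34, 0 and 0.13. A control set was in no fit, and the third set passed the filter on low values only through fusion 1.

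**Figure D3:**
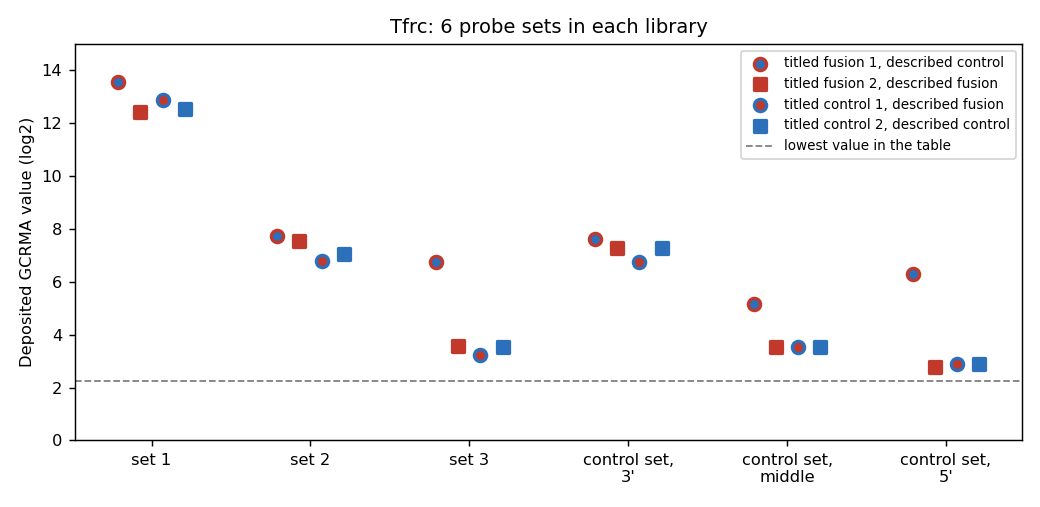
Deposited GCRMA values (log2, vertical axis) of the 6 Tfrc probe sets in 4 libraries, with edge colour for the title, fill for the description field and the dashed line at the lowest value in the table. Fusion 1 is highest at every set and stands well apart at set 3 and at the middle and 5' control sets.

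Grouped by title, the brightest Tfrc set read 12.99 ± 0.80 (SD, n = 2) in the fusion libraries against 12.72 ± 0.24 in the controls, a difference of 0.27 (SE 0.45). The second set differed by 0.73 (SE 0.27) without overlap. The third differed by 1.79 (SE 1.19) and counts as not overlapping only because fusion 2 lay 0.0417 above control 2. By description the same 3 sets differed by -0.39 (SE 0.41), -0.24 (SE 0.41) and -1.75 (SE 1.19), and all overlapped. Within replicate 2 the titled fusion library differed from its control by -0.12, 0.49 and 0.04. Without fusion 1 the title difference of the brightest set turned from 0.27 to -0.29, so its direction rests on that library.

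Fusion 1 lay at least 2-fold above each of the other libraries at 272 of the tested probe sets, or 1.53%, and of the 8 iron gene sets the third Tfrc set was the only one. The same count was 159 for control 1, 143 for control 2 and 71 for fusion 2. The Tfrc 3' minus 5' difference was 1.31 in fusion 1 and 4.53, 3.87 and 4.38 in fusion 2, control 1 and control 2. Outside fusion 1 the 5' set read only 2.76 to 2.89, so the size of these differences is limited by background. For Actb, the same difference was 0.70 in fusion 1 and 0.63 to 0.64 in the others, and for Gapdh it was -0.31 against -0.37 to -0.30. Pcx, whose 5' set lay near the lowest value everywhere, had 2.22 in fusion 1 and 2.82 to 3.94 in the others. The 18S ribosomal RNA sets differed by -0.96 in fusion 1 and by -0.73 to -0.49 in the others. The part of RNA quality or labelling in the Tfrc values was not tested.

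**Figure D4:**
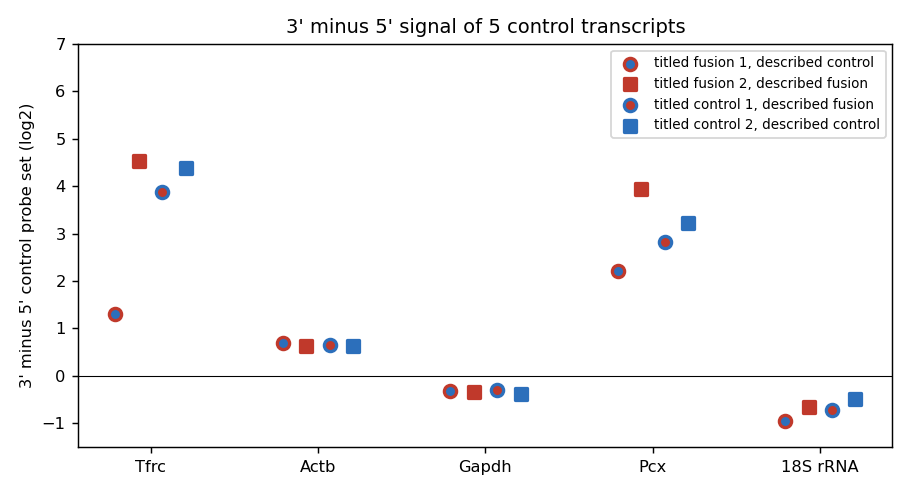
3' minus 5' control probe set value (log2, vertical axis) of 5 transcripts in 4 libraries, with edge colour for the title and fill for the description field. At Tfrc fusion 1 has 1.31 against 3.87 to 4.53 in the others, whose low 5' readings limit the size of the difference. At Actb fusion 1 has 0.70 against 0.63 to 0.64.

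Fth1 encodes the ferritin heavy chain, the ferroxidase subunit of the storage shell. Its brighter probe set (1448771_a_at) read 14.82 in fusion 1, 14.81 in fusion 2, 14.80 in control 1 and 14.69 in control 2. The other (1427021_s_at) read 13.35, 13.45, 13.50 and 13.45 in the same order. The libraries spanned 0.14 at either set. At the brighter set the title difference was 0.07 (SE 0.08) and the description difference 0.05 (SE 0.07). The other set gave -0.07 (SE 0.11) and 0.07 (SE 0.08), so the sets disagreed on the direction by title.

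Ireb2 encodes the iron regulatory protein IRP2, an RNA-binding sensor that is degraded when iron is plentiful. Its probe set (1433527_at) read 9.11 in fusion 1, 8.73 in fusion 2, 9.12 in control 1 and 9.07 in control 2. Fusion 2 was the lowest, and the other libraries spanned 0.047. The difference was -0.17 (SE 0.27) by title and -0.17 (SE 0.20) by description, and the groups overlapped under both.

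Slc25a37 encodes mitoferrin-1, the inner-membrane importer of iron into mitochondria of erythroid cells. Its probe set (1417750_a_at) read 8.11 in fusion 1, 8.09 in fusion 2, 8.27 in control 1 and 8.29 in control 2. Both libraries titled fusion lay below both titled control. The title difference was -0.18 (SE 0.24), a 1.13-fold difference, and lay within its SE. By description it was -0.02 (SE 0.18), with overlap. Among the iron genes tested it was the one whose replicate pairs gave the same sign and nearly the same size by title, -0.16 and -0.20.

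Slc11a2 encodes DMT1, the transporter that moves iron out of the endosome and, in gut, out of food. None of its 4 probe sets passed the filter. The highest (1417584_at) read 3.35 in fusion 1, 3.10 in fusion 2, 3.33 in control 1 and 4.05 in control 2, and the next (1452078_a_at) read 3.53, 3.09, 3.04 and 3.62. At both sets the described controls lay above the described fusion libraries, at levels where a difference is compressed and its size is no measured fold. The remaining 2 sets read 2.28 to 2.29 and 2.23.

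Ferroportin, the cellular iron exporter encoded by Slc40a1, lay at the lowest value in every library at both of its probe sets, with no reading above 2.24. Aco1, which encodes IRP1, the cytosolic aconitase that becomes an RNA-binding protein when it loses its iron-sulphur cluster, had 3 probe sets and none read above 2.24 either. Steap3, the endosomal ferrireductase, read 2.61 to 2.70 at its highest set and 2.23 at the other 2. In all, 10 of the 23 probe sets stayed within 0.5 of that value in all 4 libraries. For these genes no difference between libraries was detectable, and a low reading does not show that the transcript was absent.

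Around these 10 genes, 58 genes of 5 further iron lists were tested. By title 0 of the 58 were called by limma and 0 were at least 2-fold apart without overlap, against 0.202% of 8892 named genes; 0 had an unadjusted p under 0.05. By description 0 were called, 17 (29.3%) had an unadjusted p under 0.05 (9 higher, 8 lower) against 23.3% of named genes, and 3, or 5.17%, were at least 2-fold apart without overlap, against 10.1% of named genes. Without fusion 1 the 3 became 7, with control 2 alone as the described control, which makes overlap less likely. The 3 are genes of heme handling. Flvcr1, a heme exporter, read 9.39 in fusion 1, 7.70 in fusion 2, 7.64 in control 1 and 9.52 in control 2, a description difference of -1.79 (SE 0.16). Hmox1, the inducible heme oxygenase that frees iron from heme, read 5.74, 7.86, 6.57 and 5.39, a difference of 1.65 (SE 0.51). Bach1, a heme-binding repressor of Hmox1, read 9.75, 10.55, 10.91 and 9.25, a difference of 1.23 (SE 0.26). Each of the 3 had its described fusion libraries on one side, as the rule that picked them requires. Their title differences were -0.03 (SE 0.96), 0.82 (SE 0.92) and 0.07 (SE 0.71).

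The list of heme export, breakdown and scavenging had 7 of 8 tested members higher by description, with a median of 0.40, where the median of all named genes was 0.01. Heme synthesis genes had 6 of 10 higher and a median of 0.18. Urod, uroporphyrinogen decarboxylase, differed by 0.75 (SE 0.12) and Fech, which inserts iron into protoporphyrin, by 0.68 (SE 0.30), whereas Alas1, the first enzyme of the path, differed by -0.50 (SE 0.18). Alas2, its erythroid form, lay near the lowest value in all libraries. Of 23 iron-sulphur cluster assembly genes 15 were lower by description, with a median of -0.26. Groups did not overlap at 12 that were lower and 6 that were higher, and over all named genes these shares were 25.6% and 30.3%. Glrx5, a mitochondrial glutaredoxin of that pathway, differed by -0.997 (SE 0.15) and Iscu, the scaffold, by -0.26 (SE 0.13), while Hscb, a co-chaperone of the scaffold, differed by 0.95 (SE 0.17).

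**Figure D5:**
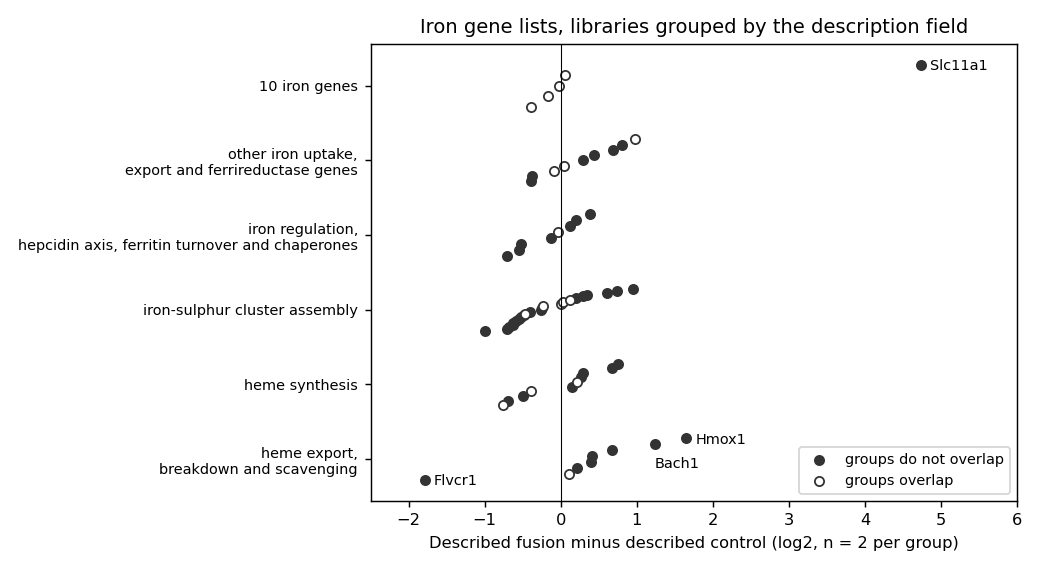
Described fusion minus described control (log2, horizontal axis, n = 2 per group) of the tested iron genes by list, with 1 point per gene, filled where the groups do not overlap and open where they do; the genes at least 2-fold apart without overlap are named. Slc11a1 lies at 4.74, beyond all genes of the other lists, which run from -1.79 to 1.65.

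The list of other uptake, export and reductase genes had 6 of 9 higher and a median of 0.29. Tfr2, the second transferrin receptor, differed by 0.80 (SE 0.26), Slc25a28, which encodes mitoferrin-2, by 0.69 (SE 0.28), and Slc39a14, a metal importer, by -0.39 (SE 0.18). The regulation and ferritin turnover list had 3 of 8 higher and a median of -0.08. Ncoa4, the receptor that takes ferritin to the lysosome, differed by -0.55 (SE 0.20) and Fbxl5, the iron-sensing ubiquitin ligase subunit that degrades IRP2, by -0.03 (SE 0.17). Hamp, which encodes hepcidin, lay near the lowest value. The genes named from these lists that were under 2-fold apart were chosen after their values were seen. So were Vim, Mpo, Prtn3 and Rhag.

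Erythroid markers, of which 5 of 10 on the array were tested, had 4 higher by description and a median of 0.90. Epb42, Tal1 and Klf1 differed by 3.37, 1.39 and -2.37. Of the untested markers, Hba-a1, Alas2, Ermap and Slc4a1 lay near the lowest value in every library. Rhag, also untested, read 7.30 in control 2 alone. It lay near the lowest value, at 2.29, 2.26 and 2.26, in fusion 1, control 1 and fusion 2. The summed linear level of that list was 4905 in fusion 1, 14546 in control 1, 6771 in control 2 and 12717 in fusion 2. Tal1, the brightest gene of the list in every library at 12.07 to 13.71, weighs most in this sum. The part of erythroid cells in the values of the heme genes was not tested. Of neutrophil markers 2 of 12 were tested, Mpo and Prtn3, and both were lower by description with groups that overlapped. Of fibroblast markers 2 of 8 were, Vim at 0.19 (SE 0.14) and Acta2 at 1.39 (SE 0.31).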

How the data were processed

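Per the submitters' processing notes, the authors made the deposited log2 values with GCRMA 2.28.0, which corrects background with probe sequence, normalizes across arrays and combines the probes of a set. The log2 scale was inferred from their span, 2.23 to 16.3. Between 54.7% and 54.9% of a library's sets were at most 0.5 above the minimum. The authors' filters and batches are not given in the sources used. The number of arrays limits the precision.

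The members, gene lists and rules for naming genes were chosen with earlier results of these data known. Genes come from the platform annotation, and in the lists a gene is read at its brightest probe set by mean. The 64 control probe sets were left out, and 17720 probe sets with a mean of at least 4 were fitted with limma 3.58.1 in R 4.3.3 (lmFit, eBayes with trend), two-sided, 2 libraries per group and 2 residual degrees of freedom, by title and by description, with Benjamini-Hochberg adjustment over all of them. The fit was tested on simulated data with known changes and the same SD at every probe set. That setting lacks the unequal spreads and conflicting labels of these libraries. SEs are limma's, and SDs are over 2 libraries. From the other lists, genes at least 2-fold apart without overlap were named, up to 4 per list. Alternatives were other filters, no trend, a replicate block, other scalings and leaving out each library.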

Additional observations from a re-analysis of the deposited data

How the results depend on the processing

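With 2 libraries per group, floor-limited values and labels that disagree, these results are limited. By title, 0 probe sets were called under each of the filters, scalings, trend and left-out libraries tried, and 2 were when grouped by description. By description the 2 calls became 0 without the filter, 14 after quantile normalization and 10 after median centring, and 0 with any 1 library left out, where 1 side is a single library assumed to vary like the remaining pair; no iron gene was called under any of these. The cause was not tested. Same-numbered libraries were not said to share a culture: their deviations from the group means correlated at -0.20 by title and 0.59 by description, and the fit with a replicate block called 0 by title and 0 by description. With crossed pairing as a block, added after seeing the data, 0 were called by title.

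The count of iron gene probe sets at least 2-fold apart without overlap was 1 by title, 0 at a mean filter of 6 or after quantile normalization, and 1 to 2 with a library left out, where it was 2 without fusion 2. By description it was 1, then 2 after quantile normalization, and 1 to 2 with a library left out, where it was 2 without control 2 or without fusion 2. Of 84 alternatives for the log2 differences of 5 iron genes, 74 moved the value by less than the spread between replicates and 10 by more. No iron gene difference was called, so none of these is a test of stability. The Slc11a1 title difference ranged from -5.28 to 4.21 and the description difference ranged from 4.19 to 5.29. The Tfrc difference ranged from -0.29 to 0.93 by title and from -0.89 to 0.11 by description. Without fusion 1, an alternative chosen after seeing the data, the 3 further iron genes at least 2-fold apart by description became 7, with control 2 as the only described control.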
